A study of Homo sapiens with 12 samples.

Results

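Integrins, laminins and collagen IV are the receptors and the sheet-forming proteins through which cells attach to a basement membrane. An integrin is a pair of an alpha and a beta subunit in the cell membrane, and the alpha subunit largely sets which ligand is bound. A laminin is a trimer of an alpha, a beta and a gamma chain, and collagen IV is a triple helix of alpha chains that forms the network of vascular basement membranes. Endothelial cells carry and make these proteins, and blood cells carry integrins too, among them the beta-2 integrins of leukocytes. The genes described here are 40 of the 56266 Ensembl genes in the deposited tables. They were 17 integrin alpha, 7 integrin beta, 10 laminin and 6 collagen IV genes. The set was put together by the names of the families, with earlier results of these data known. The integrin genes ITGA2B and ITGB3 were left out, so sums and shares of a class cover the listed genes only.

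The libraries were RNA-Seq of cells from H1, an established human embryonic stem cell (hESC) line, during blood differentiation. Wild-type (WT) H1 was compared with H1-GATA2-/-, a clone in which TALENs placed a PGK-neomycin cassette in exon 3 of GATA2, so the GATA2-/- groups stand for 1 clone that also carries the cassette and went through drug selection. Hemogenic endothelium (HE, CD34+CD31+CD43-) was sorted at day 8 of co-culture on OP9, a mouse stromal cell line, and hematopoietic progenitor cells (HPC, CD34+CD43+) were sorted at day 9. The 10 libraries formed 5 groups of 2: GATA2-/- hESCs kept undifferentiated in mTeSR1, WT HEs, GATA2-/- HEs, WT HPCs and GATA2-/- HPCs. The 2 WT hESC samples were not analysed here, so every comparison with hESCs was made within GATA2-/- cells.

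Values are TPM, the usual length-scaled transcript unit, which are scaled to gene length and to the library total, so that levels of different genes can be compared. TPM keeps no read depth, and no counting error can be given. Differences between groups are on the log2(TPM + 1) scale with their standard error (SE), a scale that understates changes of low genes. They were tested with limma across the 21543 genes that reached a TPM of 1 in at least 2 libraries. A member is said to have risen or fallen where the Benjamini-Hochberg adjusted p over all those genes was under 0.05. Of the 40 members 34 entered the test, and ITGA11, ITGAD, ITGB6, ITGB8, COL4A3 and COL4A4 did not. Nothing in the labels says that replicates were separate cultures, so p-values measure the spread between these libraries, which may be technical.

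The sorted populations carried the markers of their labels. The summed TPM of 10 endothelial genes was 4432 to 5354 in the 4 HE libraries, 1072 to 1430 in the 4 HPC libraries and 113 to 135 in hESCs. SPN, which encodes the CD43 antigen of the sort, was at 98.0 to 108 TPM in HPCs and 1.76 to 8.81 in HEs, whereas POU5F1 was at 3332 and 2855 in hESCs and at most 3.02 elsewhere. The leukocyte antigen PTPRC was at 0.68 to 3.09 TPM in HPCs. GATA2 itself was at 107 and 78.0 TPM in WT HEs and 111 and 94.1 in GATA2-/- HEs, and at 290.1 and 204 TPM in WT HPCs and 112 and 83.8 in GATA2-/- HPCs. This gene-level value includes any transcript of the disrupted locus, so it does not check the genotype. Mitochondrial genes took 15.1% and 14.8% of the TPM in GATA2-/- HPCs and 6.29% to 9.61% in the other libraries.

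**Figure D1:**
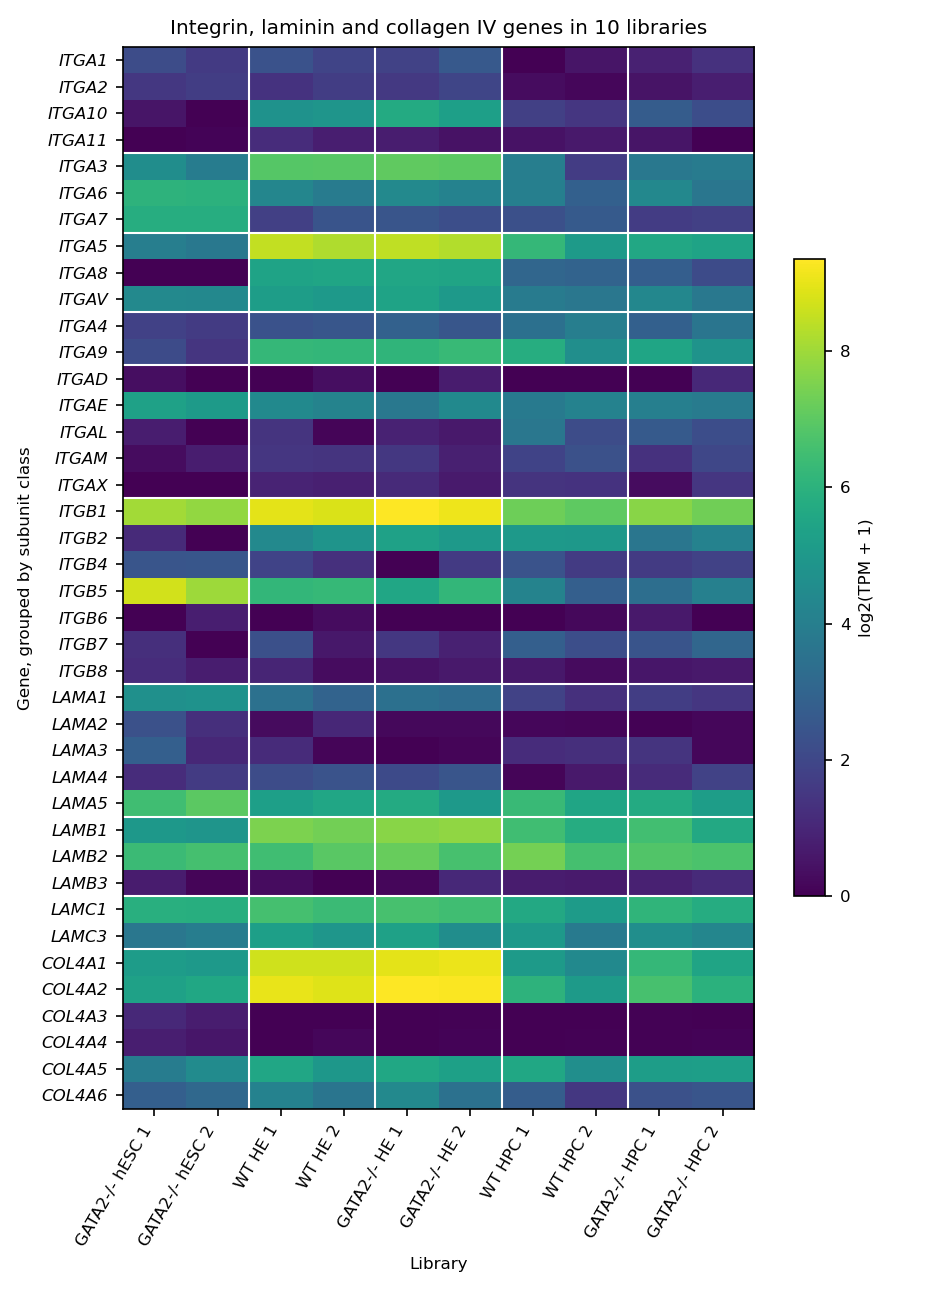
Level of each of the 40 genes (rows, grouped by subunit class) in each of the 10 libraries (columns), as log2(TPM + 1). COL4A1, COL4A2, ITGB1 and ITGA5 are brightest in the 4 HE columns, while ITGB5, ITGA6 and ITGA7 are brightest in the 2 hESC columns.

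The summed level of the 40 genes was highest in HEs and lowest in HPCs. Their summed TPM was 1324 and 1156 in GATA2-/- hESCs, 2768 and 2573 in WT HEs, 3253 and 3040.0 in GATA2-/- HEs, 1018 and 629 in WT HPCs and 984 and 768 in GATA2-/- HPCs. A group mean of 10 TPM was reached somewhere by 23 members, of which 15 were highest in HEs, 6 in hESCs and 2 in HPCs by the mean over all libraries of a stage. The 2 that were highest in HPCs were ITGA4 and LAMB2. Another 17 members stayed under 10 TPM in every group, and 7 of these stayed under 1.

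HEs were compared with hESCs of the same GATA2-/- clone to see how the adhesion genes differ between the undifferentiated and the endothelial state. COL4A1, COL4A2, ITGA5, ITGA8, ITGA9, ITGA10, ITGA3, ITGB2 and LAMB1 were much higher in HEs, whereas ITGB5, the laminin-binding subunits ITGA6 and ITGA7 and the laminin alpha chains LAMA1 and LAMA5 were lower. Of the 34 tested members 13 rose and 8 fell, against 30.0% of all tested genes that changed (13.9% higher and 16.1% lower). The median log2 difference of the members was 0.77, beside -0.02 over all tested genes.

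Among the collagen IV genes COL4A1 and COL4A2 had the highest levels in the HE libraries. COL4A1 and COL4A2, whose chains form the common collagen IV trimer, lie head to head on chromosome 13, COL4A1 from 110801310 to 110959504 on the minus strand and COL4A2 from 110958159 to 111165556 on the plus strand of GRCh37 (hg19). The start sites of their Ensembl canonical transcripts are at 110959504 and 110959631. The 128 bases from start to start, at chr13:110959504-110959631, are shown because they lie between the members with the highest collagen IV levels. They are given on the plus strand from GRCh37, with a GGGCGG or CCAAT match on either strand in capitals.
COL4A1 and COL4A2: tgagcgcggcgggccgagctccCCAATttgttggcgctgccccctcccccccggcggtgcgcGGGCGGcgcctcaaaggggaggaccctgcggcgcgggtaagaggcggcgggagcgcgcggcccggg
The stretch was 79.7% G and C, held 1 CCAAT and 1 GGGCGG, and held no TATAAA. It also held none of the hexamers that GATA factors are known to bind, which were searched as AGATAA or TGATAA and, with a final G, as AGATAG or TGATAG.

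COL4A1 was at 35.1 and 31.8 TPM in GATA2-/- hESCs, 405 and 404 in WT HEs, 504 and 544 in GATA2-/- HEs, 33.6 and 20.9 in WT HPCs and 74.4 and 43.2 in GATA2-/- HPCs. For COL4A2 the values were 39.7 and 46.3 in hESCs, 531 and 475 in WT HEs, 651 and 623 in GATA2-/- HEs, 65.4 and 33.0 in WT HPCs and 97.3 and 61.7 in GATA2-/- HPCs. Both genes were higher in each of the 4 HE libraries than in any hESC or HPC library. Between GATA2-/- hESCs and HEs COL4A1 rose by 3.93 (SE 0.28, adjusted p = 2.06e-05) and COL4A2 by 3.86 (SE 0.31, adjusted p = 4.07e-05). Within a library the level of COL4A2 was 1.13 to 1.95 times that of COL4A1 in all 10 libraries, a range far smaller than that of either level.

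COL4A5 and COL4A6, another head-to-head pair on the X chromosome, were lower and did not keep to a common ratio. COL4A5 was at 14.3 and 21.7 TPM in hESCs, 44.7 and 30.0 in WT HEs, 46.1 and 38.4 in GATA2-/- HEs, 45.9 and 23.4 in WT HPCs and 35.5 and 36.8 in GATA2-/- HPCs, and it rose by 1.21 (SE 0.34, adjusted p = 0.0262) from hESCs to HEs. COL4A6 was at 6.17 and 7.85 TPM in hESCs, 16.9 and 11.5 in WT HEs, 20.2 and 10.2 in GATA2-/- HEs, 5.82 and 1.86 in WT HPCs and 3.93 and 4.46 in GATA2-/- HPCs. The COL4A5 values of HEs and HPCs overlapped in WT but not in GATA2-/- cells, and those of COL4A6 were lower in all HPC libraries than in any HE library. The ratio of COL4A5 to COL4A6 was 2.28 to 3.77 in hESCs and HEs and 7.89 to 12.6 in HPCs. The start sites of this pair lie 1417 bases apart by the same count that gives 128 for COL4A1 and COL4A2. COL4A3 and COL4A4, the chains of the kidney glomerular network, had their highest values in hESCs (1.09 and 0.67, and 0.73 and 0.49 TPM) and were at most 0.11 in the HE and HPC libraries.

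**Figure D2:**
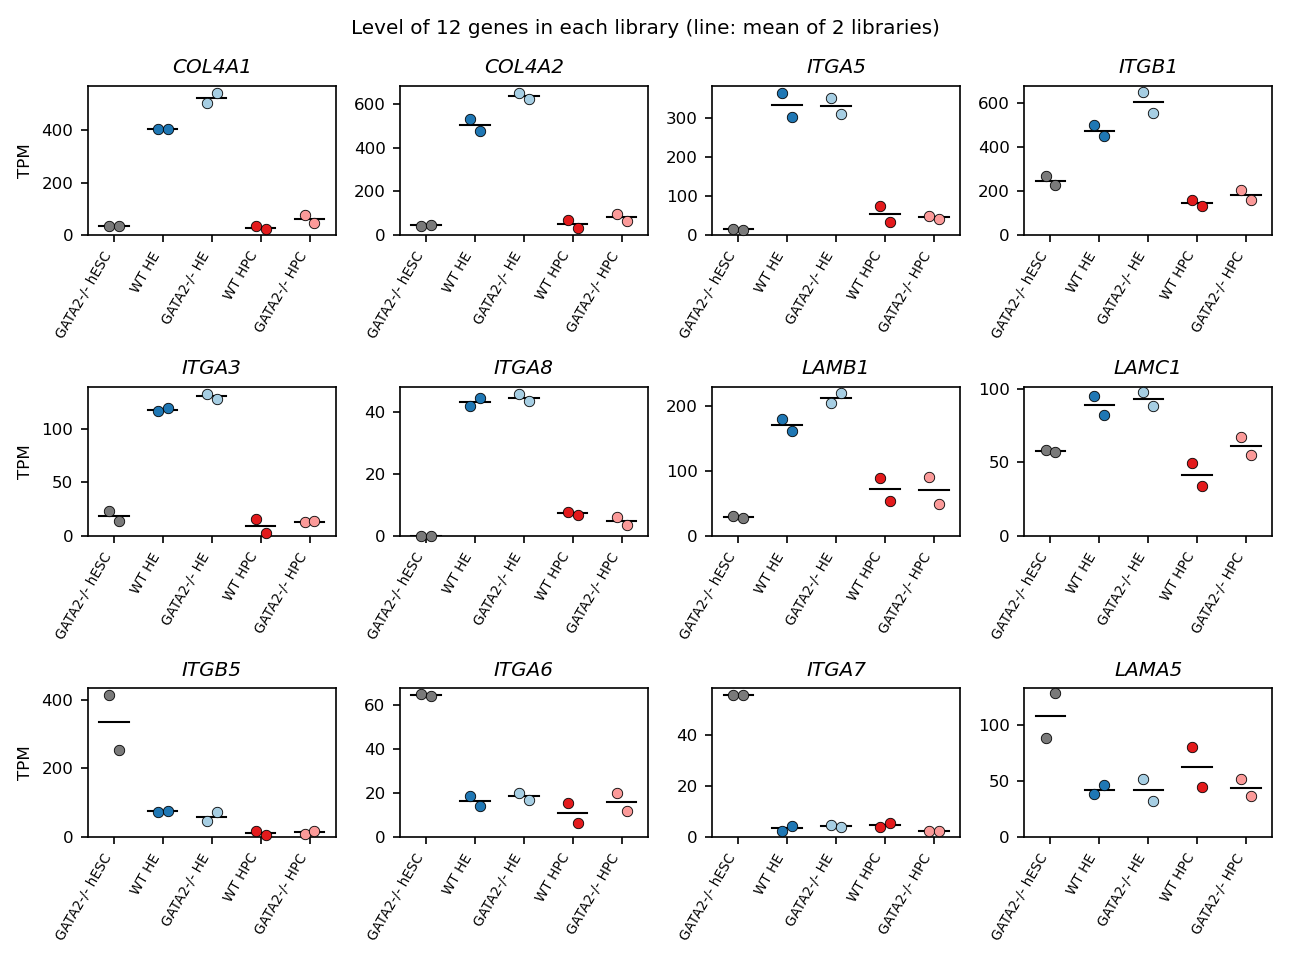
TPM of 12 genes in each of the 10 libraries, one panel per gene, with points for libraries and a line at the mean of the 2 libraries of a group. COL4A1, COL4A2, ITGA5, ITGB1, ITGA3, ITGA8, LAMB1 and LAMC1 are highest in both HE groups, and ITGB5, ITGA6, ITGA7 and LAMA5 are highest in hESCs.

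Among the integrin alpha genes a different set of subunits predominated in HEs than in hESCs. ITGA5, which pairs with ITGB1 as the main fibronectin receptor, was at 15.0 and 12.3 TPM in hESCs, 363 and 301 in WT HEs, 350.4 and 309 in GATA2-/- HEs, 74.6 and 33.4 in WT HPCs and 48.2 and 41.5 in GATA2-/- HPCs. Of the summed TPM of the 17 listed alpha genes, without ITGA2B, it made up 45.2% to 50.8% in HEs, 25.0% to 32.7% in HPCs and 5.91% to 6.51% in hESCs. From hESCs to HEs it rose by 4.50 (SE 0.32, adjusted p = 2.27e-05). Of the RGD-binding alpha subunits, ITGA8 was listed at 0 in both hESC libraries and at 41.9 to 45.7 TPM in the 4 HE libraries, and ITGAV, a vitronectin receptor subunit, rose from 20.0 and 19.6 to 42.1 and 32.5 (adjusted p = 0.0261). ITGA8 also passed the test (adjusted p = 4.34e-06), but no fold is given against values listed at 0.

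The laminin-binding alpha subunits split. ITGA3 was at 22.9 and 14.1 TPM in hESCs, 116 and 119 in WT HEs and 132 and 128 in GATA2-/- HEs, a rise of 2.79 (SE 0.61, adjusted p = 0.00847). ITGA6 went the other way, from 64.8 and 64.2 TPM in hESCs to 18.7 and 14.0 in WT HEs and 20.1 and 16.6 in GATA2-/- HEs, and fell by 1.76 between the GATA2-/- groups (SE 0.39, adjusted p = 0.009). ITGA7 was at 55.9 and 56.0 TPM in hESCs and 2.18 to 5.31 in the other 8 libraries, and fell by 3.48 (SE 0.31, adjusted p = 7.52e-05). ITGA6 and ITGA7 were each higher in both hESC libraries than in any other library. For the 17 alpha genes the ratio of ITGA6 to ITGA5 thus went from 4.31 and 5.23 in hESCs to 0.05 to 0.06 in HEs and 0.19 to 0.41 in HPCs.

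The promoters of ITGA5 and ITGA6 are shown as those of the members whose order of level reversed between hESCs and HEs. Each runs from 250 bases before to 50 bases from the canonical start site, 5′ to 3′ on the strand of its gene, with matches to the motifs named above in capitals. ITGA5 lies on the minus strand of chromosome 12 (54789045 to 54813050), with the window at chr12:54813001-54813300. ITGA6 lies on the plus strand of chromosome 2 (173292082 to 173371187), with the window at chr2:173292064-173292363.
ITGA5: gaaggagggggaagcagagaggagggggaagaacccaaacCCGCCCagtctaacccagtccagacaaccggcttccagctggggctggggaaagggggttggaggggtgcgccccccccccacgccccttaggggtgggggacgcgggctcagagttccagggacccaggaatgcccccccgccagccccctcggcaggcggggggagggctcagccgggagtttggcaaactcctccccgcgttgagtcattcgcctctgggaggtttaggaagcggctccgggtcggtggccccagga
ITGA6: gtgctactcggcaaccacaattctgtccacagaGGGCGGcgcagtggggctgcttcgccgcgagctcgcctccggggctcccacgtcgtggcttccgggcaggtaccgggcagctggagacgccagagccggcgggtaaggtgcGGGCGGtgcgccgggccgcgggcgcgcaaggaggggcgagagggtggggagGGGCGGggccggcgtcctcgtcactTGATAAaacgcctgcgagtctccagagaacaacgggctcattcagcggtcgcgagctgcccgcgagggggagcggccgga
The ITGA5 window held 1 GC box and no GATA hexamer, and the ITGA6 window held 3 GC boxes and 1 GATA hexamer. Both windows lacked CCAAT and TATAAA.

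Across the 40 member promoters, cut from GRCh37 in the same way, 6 (15.0%) held at least 1 of the 4 GATA hexamers on either strand, namely those of ITGA6, ITGA9, ITGAM, ITGB7, LAMA4 and COL4A6. The share over 19894 protein-coding promoters of the same length was 18.4%. The hexamers share the letters GATA, and neighbouring matches can overlap. GGGCGG was in 25 member promoters (62.5%, beside 61.4% of all), CCAAT in 5 (12.5%, beside 36.0%) and TATAAA in none (beside 9.62%). A match is a description of these letters only. The 5 with CCAAT were ITGA10, ITGB8, COL4A1, COL4A2 and COL4A5. The windows of COL4A1 and COL4A2 overlap, so the 1 CCAAT and the GGGCGG of the stretch shown above count for both. Those of COL4A3 and COL4A4 overlap as well, so the member promoters are not all separate sequences.

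ITGA9 and ITGA10 also belonged to the subunits that were higher in HEs. ITGA9, which binds tenascin-C and osteopontin, was at 3.44 and 1.69 TPM in hESCs, 74.1 and 71.2 in WT HEs, 68.7 and 77.2 in GATA2-/- HEs, 55.6 and 23.6 in WT HPCs and 44.1 and 26.6 in GATA2-/- HPCs, and rose by 4.42 (SE 0.41, adjusted p = 8.77e-05) from hESCs to HEs. The collagen receptor subunit ITGA10 was at 0.46 and 0.01 TPM in hESCs, 26.4 and 28.3 in WT HEs and 51.5 and 38.1 in GATA2-/- HEs, and rose by 5.22 (SE 0.33, adjusted p = 1.32e-05). The other collagen-binding subunits were low throughout. ITGA1 and ITGA2 had no library above 5.15 TPM, and ITGA11 none above 1.27. ITGA1 shares 2564 exonic bases with overlapping genes, PELO among them, of its 18545 exonic bases, and reads over the shared bases could not be told apart.

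Among the alpha subunits of leukocyte integrins ITGAE had the highest levels. ITGAE, the alpha-E subunit of some tissue T cells, was at 39.5 and 32.9 TPM in hESCs and 12.4 to 20.9 in all other libraries, and fell by 1.11 (SE 0.27, adjusted p = 0.0149) from hESCs to HEs. ITGAL, ITGAM and ITGAX, alpha subunits of the beta-2 integrins of leukocytes, reached at most 12.0, 3.97 and 1.79 TPM, all in HPC libraries, and ITGAD at most 1.11. ITGA4, whose product binds VCAM-1 and fibronectin, was at 2.48 and 2.08 TPM in hESCs, 4.14 to 6.43 in HEs, 9.83 and 15.2 in WT HPCs and 6.26 and 11.5 in GATA2-/- HPCs. It shares 2813 exonic bases with CERKL on the opposite strand, and the library kit is not stated to keep strand. The same limit holds for ITGAE (505 bases shared, with HASPIN among the genes), ITGA9 (763, with ITGA9-AS1) and LAMA1 (1754). Further members also share exonic bases with other genes.

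The beta subunits changed hands as well. ITGB5, a vitronectin receptor subunit that pairs with ITGAV, was at 415 and 254 TPM in hESCs, 72.8 and 76.4 in WT HEs, 45.4 and 72.2 in GATA2-/- HEs, 17.2 and 6.10 in WT HPCs and 9.35 and 15.6 in GATA2-/- HPCs. ITGB1, the partner of most alpha subunits, was at 265 and 226 TPM in hESCs, 499 and 448 in WT HEs, 650.4 and 554 in GATA2-/- HEs, 157 and 129 in WT HPCs and 205 and 159.6 in GATA2-/- HPCs. ITGB1 was the higher of the pair in all 8 HE and HPC libraries, and ITGB5 in both hESC libraries. From hESCs to HEs ITGB5 fell by 2.48 (SE 0.45, adjusted p = 0.00353), and ITGB1 rose by 1.29 (SE 0.18, adjusted p = 0.000787). Of the summed TPM of the 7 listed beta genes, without ITGB3, ITGB5 made up 60.2% and 52.3% in hESCs and ITGB1 80.8% to 88.1% in HEs.

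ITGB2, the beta subunit of the leukocyte integrins, was already present in HEs. It was at 1.18 and 0 TPM in hESCs, 20.2 and 27.3 in WT HEs, 40.1 and 32.3 in GATA2-/- HEs, 32.1 and 30.9 in WT HPCs and 11.8 and 16.7 in GATA2-/- HPCs. It rose from hESCs to HEs by 4.65 (SE 0.38, adjusted p = 4.16e-05), while the summed TPM of its partners ITGAL, ITGAM, ITGAX and ITGAD remained under that of ITGB2 in each HE and HPC library. The antisense gene ITGB2-AS1, which shares 303 exonic bases with ITGB2, was at most 1.10 TPM. ITGB4, partner of ITGA6 in epithelial hemidesmosomes, was at most 4.64 TPM and fell by 1.69 (SE 0.54, adjusted p = 0.045). That call was lost under most of the other settings, including each that left out either hESC library. ITGB7 was at most 7.54 TPM and shares 1881 exonic bases with ZNF740, and ITGB6 and ITGB8 were at most 0.72 and 1.30 TPM.

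**Figure D3:**
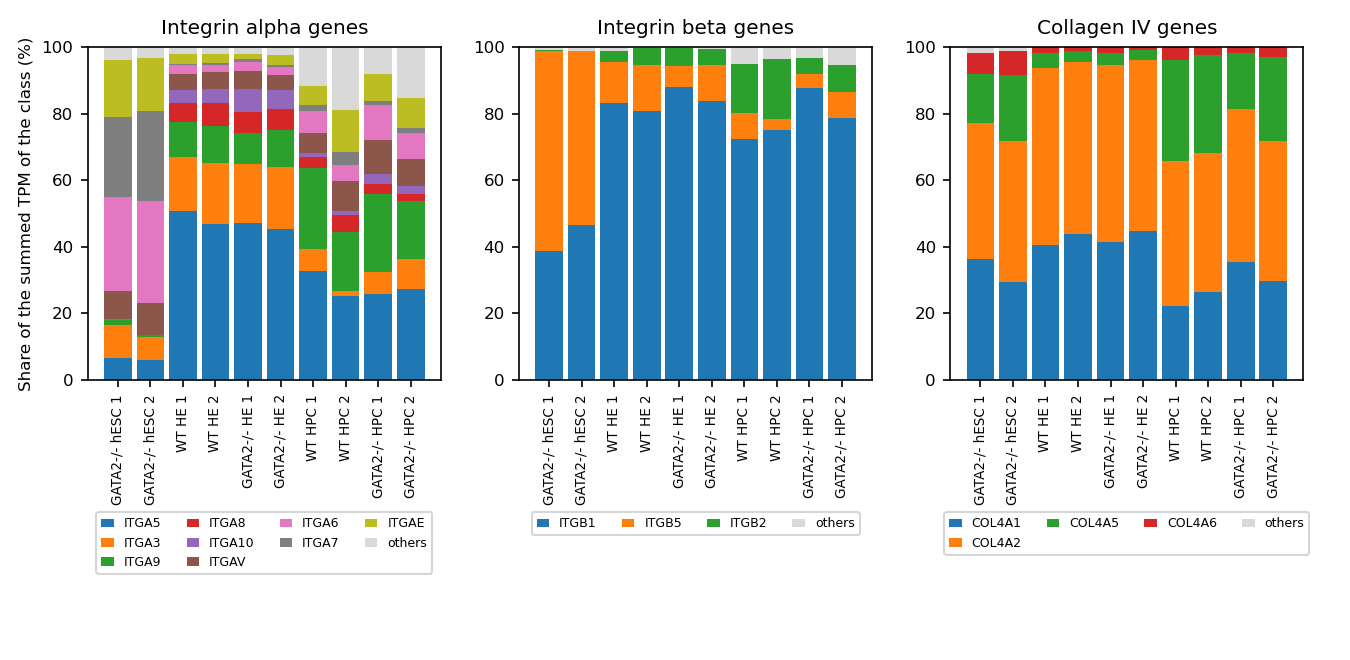
Share (%) of the summed TPM of the listed genes of each class that each gene took in each of the 10 libraries. The classes are integrin alpha, integrin beta and collagen IV genes, with the remaining listed genes in light grey. ITGA2B and ITGB3 are not included. ITGA5 takes 45.2% to 50.8% in the HE libraries, and ITGB5 takes 60.2% and 52.3% in the hESC libraries.

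The laminins changed less in total than the collagens, and their beta chain differed between stages. The summed TPM of the 10 laminin genes was 308 and 354 in hESCs, 454 to 549.8 in HEs and 244 to 423 in HPCs, whereas that of the 6 collagen IV genes was 97.1 and 109 in hESCs, 921 to 1222 in HEs and 79.2 to 211 in HPCs. LAMB1 was at 30.3 and 28.1 TPM in hESCs, 181 and 162 in WT HEs, 205 and 219.9 in GATA2-/- HEs, 89.3 and 53.8 in WT HPCs and 90.8 and 49.1 in GATA2-/- HPCs, and rose by 2.82 (SE 0.30, adjusted p = 0.000195) from hESCs to HEs. LAMB2 was at 82.8 and 95.8 TPM in hESCs, 88.4 to 142 in HEs and 95.1 to 166 in HPCs, and passed the test in no comparison. The ratio of LAMB1 to LAMB2 was 0.37 and 0.29 in hESCs, 1.32 to 2.22 in HEs and 0.48 to 0.81 in HPCs, so LAMB1 was the higher chain only in the 4 HE libraries.

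LAMA5 was the main laminin alpha chain in every library, with 69.9% to 95.1% of the summed alpha-chain TPM. It was at 87.6 and 128 TPM in hESCs, 37.7 and 45.8 in WT HEs, 51.8 and 31.7 in GATA2-/- HEs, 80.1 and 44.5 in WT HPCs and 51.2 and 36.0 in GATA2-/- HPCs, and fell by 1.36 (SE 0.35, adjusted p = 0.0175) from hESCs to HEs. LAMA1, the alpha chain of the early embryo, was at 24.6 and 25.9 TPM in hESCs, 6.83 to 10.3 in HEs and 1.44 to 2.60 in HPCs, and fell by 1.34 (SE 0.32, adjusted p = 0.013). LAMA2 fell from 4.01 and 1.37 to 0.14 and 0.16 TPM (adjusted p = 0.0249), LAMA3 did not exceed 6.03 in any library, and LAMA4, the endothelial alpha chain, did not exceed 4.49.

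The gamma chain LAMC1, a part of most laminins, was at 58.3 and 57.0 TPM in hESCs, 95.5 and 82.3 in WT HEs, 98.3 and 88.7 in GATA2-/- HEs, 49.4 and 33.9 in WT HPCs and 67.6 and 54.8 in GATA2-/- HPCs. It rose by 0.69 (SE 0.21, adjusted p = 0.0347) from hESCs to HEs. LAMC3 was at 12.0 and 14.8 TPM in hESCs, 23.2 to 39.4 in HEs and 13.0 to 32.5 in HPCs and did not pass the test (log2 difference 1.13, SE 0.41). LAMB3 was at most 1.18 TPM.

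hESCs and HEs also differed in medium, in the OP9 co-culture and in the sort, and these cannot be told apart from the cell state. All 10 endothelial markers rose. Of 12 stromal and mesenchymal markers 5 rose and none fell from hESCs to HEs, and their summed TPM was 792 and 304 in hESCs and 671 to 1011 in HEs. COL3A1, LUM and DCN of that list were at 0 in hESCs, and no marker of the list was at 0 in all HE libraries. The part of these markers in the members' differences was not tested. Whichever of the libraries was left out, 12 of the 21 calls remained, those of ITGA10, ITGA3, ITGA7, ITGA5, ITGA8, ITGA9, ITGB1, ITGB2, ITGB5, LAMB1, COL4A1 and COL4A2.

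HPCs were compared with HEs in each genotype to see how the genes behave where blood progenitors arise from endothelium. No member rose in either genotype in the fit used here. Under other settings ITGAL passed upwards, in WT cells after quantile normalization (limma adjusted p = 0.04). With the replicate number as a block it did so in WT and in GATA2-/- cells (limma adjusted p = 0.0188 and 0.0408). In WT cells 15 of 34 tested members fell, where 6.59% of all tested genes were lower and 3.32% higher (9.91% in all). In GATA2-/- cells 11 fell, where 7.24% were lower and 5.5% higher (12.7% in all). The median log2 difference of the members was -0.82 in WT and -0.71 in GATA2-/- cells, beside -0.01 and 0.03 over all tested genes. The 2 comparisons share no library. The same 11 genes fell in both, all of the 11 in GATA2-/- and 11 of the 15 in WT cells: ITGA10, ITGA3, ITGA5, ITGA8, ITGAV, ITGB1, ITGB5, LAMA1, LAMB1, COL4A1 and COL4A2.

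**Figure D4:**
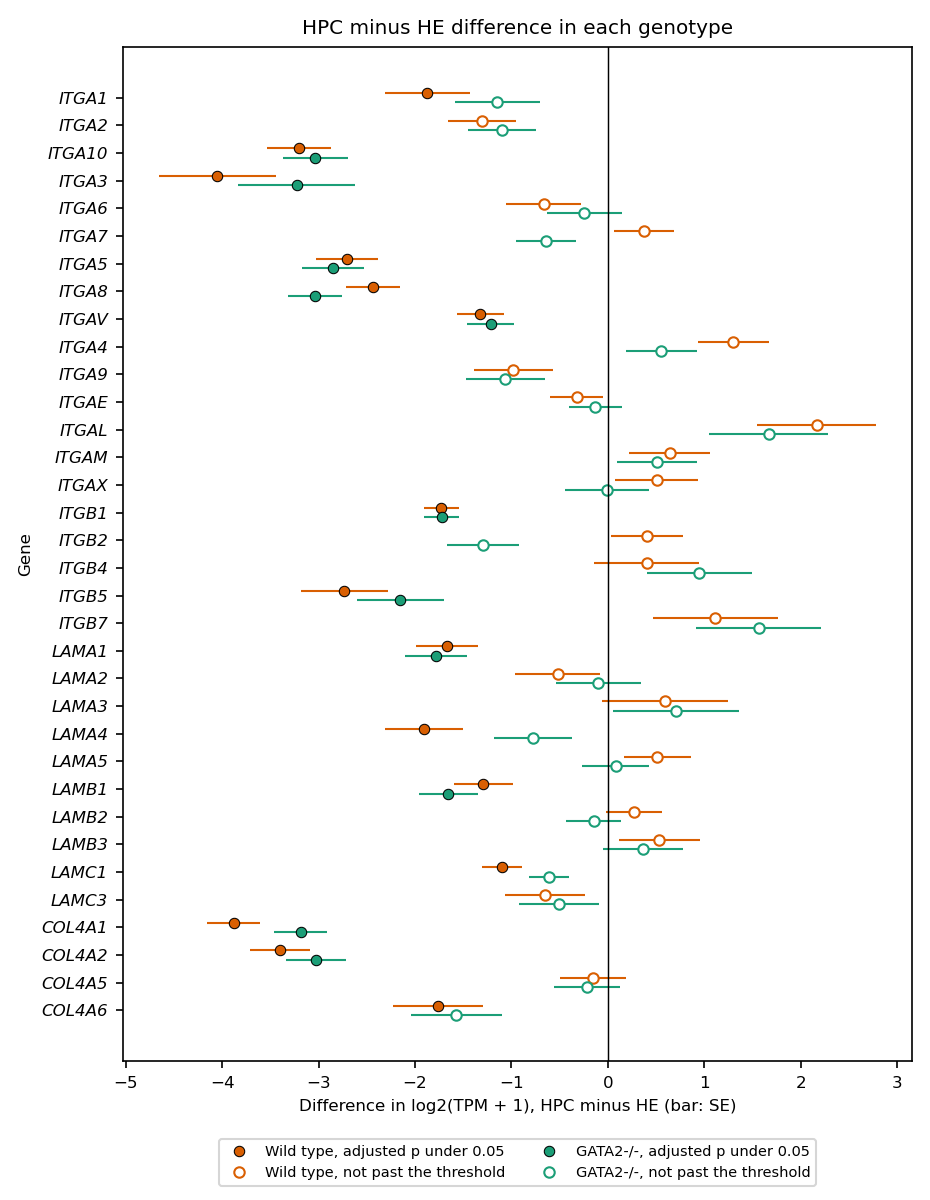
Difference in log2(TPM + 1) between HPCs and HEs for the 34 tested genes in WT cells and in GATA2-/- cells, with bars for the SE, filled points where the adjusted p was under 0.05 and open points elsewhere. The filled points (15 in WT and 11 in GATA2-/-) all lie left of 0.

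COL4A1 and COL4A2 again had large differences. COL4A1 fell by 3.88 (SE 0.28, adjusted p = 0.000268) in WT and by 3.18 (SE 0.28, adjusted p = 0.000341) in GATA2-/- cells. COL4A2 fell by 3.40 (SE 0.31, adjusted p = 0.000542) in WT and by 3.02 (SE 0.31, adjusted p = 0.000579) in GATA2-/- cells. COL4A5 differed by -0.15 (SE 0.34) and -0.21 (SE 0.34), with overlapping libraries in WT cells, and passed in neither. The ratio of COL4A1 to COL4A5 accordingly was 9.06 to 14.2 in HEs and 0.73 to 2.10 in HPCs.

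The receptor for fibronectin fell on both of its chains. ITGA5 fell by 2.70 (SE 0.32, adjusted p = 0.00128) in WT and by 2.85 (SE 0.32, adjusted p = 0.000848) in GATA2-/- cells, and ITGB1 by 1.73 (SE 0.18, adjusted p = 0.000775) and 1.72 (SE 0.18, adjusted p = 0.000597). ITGA8 was at 7.56 and 6.79 TPM in WT HPCs and 5.96 and 3.41 in GATA2-/- HPCs, and fell by 2.44 and 3.04 (adjusted p = 0.00114 and 0.00044). ITGA10 was at 2.38 and 1.79 TPM in WT HPCs and 5.66 and 3.60 in GATA2-/- HPCs, a fall of 3.21 and 3.03 (adjusted p = 0.000775 and 0.000743).

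ITGA3 and ITGAV completed the alpha subunits that fell in both genotypes. ITGA3 was at 15.2 and 2.17 TPM in WT HPCs and 12.3 and 13.7 in GATA2-/- HPCs, and fell by 4.05 (SE 0.61, adjusted p = 0.00394) in WT cells. In GATA2-/- cells it fell by 3.23 (SE 0.61, adjusted p = 0.0094). Replicate 2 of the WT HPCs stood far below the other 3 HPC libraries in this gene. ITGAV was at 14.0 and 12.0 TPM in WT HPCs and 18.9 and 12.5 in GATA2-/- HPCs, and fell by 1.33 and 1.21 (adjusted p = 0.0104 and 0.0128). Its partner ITGB5 fell by 2.73 and 2.15 (adjusted p = 0.00639 and 0.0158).

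The laminin chains fell in part. LAMB1 fell by 1.29 (SE 0.30, adjusted p = 0.0302) and 1.65 (SE 0.30, adjusted p = 0.00837), and LAMA1 by 1.66 and 1.78 (adjusted p = 0.0129 and 0.00754). LAMB2 differed by 0.27 (SE 0.29) in WT and -0.15 (SE 0.29) in GATA2-/- cells, and LAMA5 by 0.51 (SE 0.35) and 0.08 (SE 0.35), and neither passed. LAMB2 was the highest laminin gene in each of the 4 HPC libraries.

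ITGA1, LAMA4, LAMC1 and COL4A6 passed the test in WT cells and missed it in GATA2-/- cells. LAMA4 was at 3.47 and 4.25 TPM in WT HEs and 0.09 and 0.54 in WT HPCs, and at 3.25 and 4.49 in GATA2-/- HEs and 1.20 and 2.62 in GATA2-/- HPCs. LAMC1 fell by 1.10 (SE 0.21, adjusted p = 0.0116) in WT cells and differed by -0.61 (SE 0.21) in GATA2-/- cells. The differences between the genotypes in this step, 0.73 for ITGA1, 1.13 for LAMA4, 0.49 for LAMC1 and 0.19 for COL4A6, did not pass the test of the difference itself (limma adjusted p of 0.927, 0.876, 0.882 and 0.999). The 4 genes are therefore not shown to differ between genotypes.

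ITGAL, which missed the threshold here, had the highest positive difference in both genotypes. It was at 1.68 and 0.08 TPM in WT HEs and 12.0 and 3.49 in WT HPCs, and at 0.85 and 0.56 in GATA2-/- HEs and 5.34 and 3.60 in GATA2-/- HPCs, with log2 differences of 2.17 (SE 0.62) and 1.67 (SE 0.62). ITGB7, the beta subunit of gut-homing lymphocytes, differed by 1.11 (SE 0.65) and 1.56 (SE 0.65), and ITGB4 by 0.40 (SE 0.54) and 0.95 (SE 0.54). ITGA4 differed by 1.30 (SE 0.37) in WT and 0.56 (SE 0.37) in GATA2-/- cells. ITGB2 differed by 0.41 (SE 0.38) in WT and by -1.30 (SE 0.38) in GATA2-/- cells, the largest contrast between the genotypes among the members.

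Other cell markers moved with this step. All 10 endothelial markers fell in both genotypes, and their sum was 1072 to 1430 TPM in HPCs. Blood cell markers went the other way. Of 9 erythroid markers 6 rose and none fell in each genotype, with a sum of 16.3 to 157 TPM in HEs and 2702 to 6508 in HPCs. Of 10 pan-hematopoietic markers 7 rose in each genotype, and of 7 megakaryocyte markers 4 did, with no falls. Only 5 of 10 myeloid markers could be tested, of which 2 rose in WT and 3 in GATA2-/- cells and none fell. ELANE, PRTN3 and CD14 of the myeloid list were at 0 in the 4 HPC libraries. Of the 12 stromal markers 4 fell and 1 rose in WT and 3 fell in GATA2-/- cells, with a sum of 161 to 365 TPM in HPCs and LUM at 0 in 3 of the 4 HPC libraries. In a bulk sample fewer cells of a type and less RNA per cell cannot be told apart. The part of any of these markers in the falls of the members was not tested. HPCs were also sorted a day later than HEs, which cannot be told apart from the cell type.

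These calls rest on the spread shared by all 10 libraries. When limma was fitted to the 4 libraries of a genotype alone, with genes filtered on those libraries, 12 members fell in WT and 11 in GATA2-/- cells. Of all genes tested in these fits 1780 and 1979 passed in either direction. With the same 4 libraries but the full set of 21543 genes, no member and no other gene passed in either genotype. The limma adjusted p was at least 0.0767 and 0.0576 for the members named. In these fits 17 and 18 members had an unadjusted p under 0.05, but the share over all genes is not given, so nothing is read from them. In the fit of all libraries 19 members had one in each genotype, beside 4834 of all tested genes in WT and 5770 in GATA2-/- cells. Fewer members, and also fewer of all tested genes, passed in WT cells whichever WT HE or WT HPC library was left out. ITGA10, ITGA3, ITGA5, ITGA8, ITGB1, COL4A1 and COL4A2 kept the call in WT cells whichever library was left out, and the same genes but ITGA3 did so in GATA2-/- cells.

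GATA2-/- HPCs were also compared with GATA2-/- hESCs, the ends of the differentiation course, where 9 of 34 tested members rose and 7 fell (30.6% of all tested genes changed, 14.2% higher and 16.4% lower). This comparison shares libraries with the others, and only its own values are given. ITGB5 fell by 4.63 (SE 0.45, adjusted p = 0.000121), ITGA7 by 4.11 (SE 0.31, adjusted p = 3.24e-05) and LAMA1 by 3.13 (SE 0.32, adjusted p = 0.000156). ITGA9 rose by 3.35 (SE 0.41, adjusted p = 0.000402) and ITGB2 by 3.35 (SE 0.38, adjusted p = 0.000249). ITGA5, ITGA8, ITGA10, ITGA4, ITGAL, ITGB7 and LAMB1 were the other members that rose, and ITGA6, ITGAE, LAMA2 and LAMA5 the others that fell. Calls that remained whichever library was left out were 9 of the 16, those of ITGA10, ITGA6, ITGA7, ITGA5, ITGA8, ITGA9, ITGB2, ITGB5 and LAMA1. The calls of ITGA4, ITGAE, ITGAL, ITGB7, LAMA2, LAMA5 and LAMB1 were lost in at least 1 such fit. COL4A1 differed by 0.75 (SE 0.28, adjusted p = 0.0721) and COL4A2 by 0.84 (SE 0.31, adjusted p = 0.0722). In this fit neither is thus shown to differ between hESCs and HPCs of the clone. Each was higher in both HPC libraries than in both hESC libraries. After quantile normalization, and after rescaling without mitochondrial and hemoglobin genes, 12 members rose and 7 fell in this comparison. Of all tested genes 6930 and 6650 then passed. The members added are not named here, so whether COL4A1 and COL4A2 pass may depend on the setting. With the 4 libraries alone and the full set of genes 5 members rose and 5 fell, where 4386 of the 21543 genes passed beside 6586 in the fit of all libraries.

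GATA2-/- cells were compared with WT cells at each stage, the question for which the series was made. No member changed in HEs, where 0.0186% of all tested genes did, and none had an unadjusted p under 0.05 (4.85% of all tested genes had one). No member changed in HPCs either, where 0.0603% did, and 7 had an unadjusted p under 0.05 (8.94% of all). The median log2 difference of the members was 0.08 in HEs and 0.02 in HPCs, beside -0.01 and 0.05 over all tested genes.

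**Figure D5:**
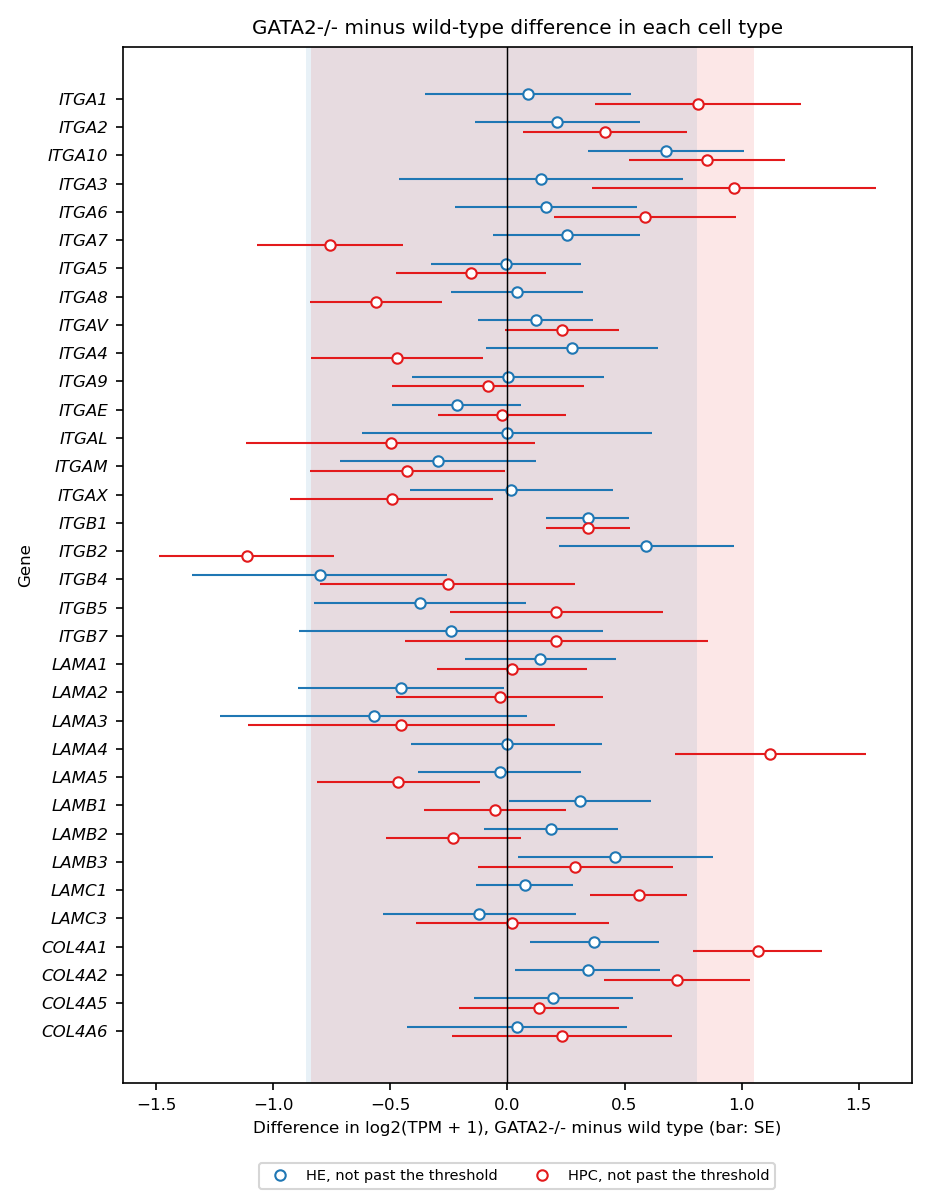
Difference in log2(TPM + 1) between GATA2-/- and WT cells for the 34 tested genes in HEs and in HPCs, with bars for the SE and shaded bands from the 5th to the 95th percentile of all tested genes (blue for HEs, red for HPCs). All points are open because no adjusted p was under 0.05, and ITGB2, LAMA4 and COL4A1 in HPCs lie outside the band.

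In HEs the differences of the members lay between -0.80 (ITGB4) and 0.68 (ITGA10). For ITGA5 the difference was -0.01 with a 95% interval of -0.74 to 0.72, for ITGA8 0.04 (-0.60 to 0.68) and for ITGA9 0.00 (-0.93 to 0.94). COL4A1 (0.37, -0.26 to 1.00), COL4A2 (0.34, -0.36 to 1.05) and ITGB1 (0.34, -0.06 to 0.75) were higher in both GATA2-/- libraries than in both WT libraries. Such a separation upwards was seen for 8 members, where 13.8% of all tested genes showed it, and downwards for 2, ITGB5 and LAMA2, where 16.5% did.

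In HPCs the members with an unadjusted p under 0.05 were COL4A1, COL4A2, LAMA4, LAMC1 and ITGA10, which were higher in GATA2-/- cells, and ITGB2 and ITGA7, which were lower. COL4A1 was at 33.6 and 20.9 TPM in WT and 74.4 and 43.2 in GATA2-/- HPCs, with a difference of 1.07 (95% interval 0.44 to 1.69, adjusted p = 0.281). COL4A2 differed by 0.72 (0.02 to 1.43, adjusted p = 0.543), with overlapping libraries. LAMA4 differed by 1.12 (0.20 to 2.05, adjusted p = 0.457), LAMC1 by 0.56 (0.09 to 1.03, adjusted p = 0.465) and ITGA10 by 0.85 (0.09 to 1.61, adjusted p = 0.492).

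ITGB2 was at 32.1 and 30.9 TPM in WT HPCs and 11.8 and 16.7 in GATA2-/- HPCs, a difference of -1.11 (-1.97 to -0.26, adjusted p = 0.422), while in HEs it was at 20.2 and 27.3 in WT and 40.1 and 32.3 in GATA2-/- cells, a difference of 0.59 (-0.26 to 1.44). The groups did not overlap at either stage, and their order was opposite. The summed TPM of 10 pan-hematopoietic markers was 706 and 662 in WT and 467 and 559 in GATA2-/- HPCs, with a median log2 difference of -0.47, 3 of 10 lower at an unadjusted p under 0.05 and none past the adjusted threshold. Their part in the ITGB2 difference was not tested. ITGA7 differed by -0.76 (-1.47 to -0.05, adjusted p = 0.521) in HPCs. The test of whether the genotype difference itself differed between the stages gave -1.71 for ITGB2 (SE 0.53, unadjusted p = 0.0108, adjusted p = 0.685) and -1.01 for ITGA7 (SE 0.44, unadjusted p = 0.049, adjusted p = 0.84). No gene of the 21543 passed that test (0.0% called, and 5.95% with an unadjusted p under 0.05), and these were the only members with an unadjusted p under 0.05.

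Separation of the HPC libraries upwards was seen for 8 members (19.7% of all tested genes) and downwards for 3, ITGA7, ITGA8 and ITGB2 (13.0%). Several values moved with the HPC libraries. The 2 HPC libraries whose headers carry a numeric tag, replicate 2 of each genotype, had erythroid marker sums of 6276 and 6508 TPM beside 2702 and 3403 in the others. The summed TPM of the 40 members was lower in them than in replicate 1, at 629 beside 1018 in WT and 768 beside 984 in GATA2-/- HPCs. ITGA5, ITGA6, ITGA9, ITGB1, LAMB1, LAMC1, COL4A1 and COL4A2 were among the members lower in replicate 2 of both genotypes, whereas ITGA4 and ITGAM were higher. The same tag heads replicate 2 of the HEs, and the hESC libraries, on which all comparisons with hESCs rest, are headed by codes that differ between them. The meaning of neither is stated. Within untagged libraries COL4A1 differed between genotypes by 1.13 and within tagged libraries by 1.01, and ITGB2 by -1.38 and -0.85. After the TPM were rescaled without mitochondrial and hemoglobin genes, the median of all tested genes between the genotypes in HPCs moved from 0.05 to 0.14, and no member passed.

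Other basement membrane genes had their falls in the same step as the members. Of 13 other basement membrane genes, led by SPARC, SERPINH1, COL18A1 and FBLN1, 10 rose and 1 fell from GATA2-/- hESCs to HEs. None rose and 8 fell from HEs to HPCs in WT cells, and none rose and 10 fell in GATA2-/- cells. SPARC, a collagen-binding matricellular protein, was at 491 and 359 TPM in hESCs, 948 to 986 in HEs and 156 to 302 in HPCs. COL18A1, another basement membrane collagen, stood apart from it with 201 to 353 TPM in HEs and 253 to 386.5 in HPCs.

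Of 13 integrin ligands outside the basement membrane 11 were tested, of which 5 rose and 2 fell from hESCs to HEs, 4 fell and none rose to HPCs in WT cells, and 4 fell and 1 rose in GATA2-/- cells. FN1, the fibronectin bound by ITGA5 and ITGB1, was at 98.5 and 74.6 TPM in hESCs, 486 and 652 in WT HEs, 568 and 719 in GATA2-/- HEs, 43.1 and 20.7 in WT HPCs and 69.3 and 69.3 in GATA2-/- HPCs. It was highest in the 4 HE libraries, as its receptor chains were.

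Genes that activate integrins or link them to actin changed in both directions between HEs and HPCs. Of 24 such genes 14 rose and 3 fell from hESCs to HEs, 3 rose and 9 fell from HEs to HPCs in WT cells, and 5 rose and 7 fell in GATA2-/- cells. FERMT3, the blood cell kindlin, was at 2.85 and 6.96 TPM in hESCs, 234 and 223 in WT HEs, 182.5 and 142 in GATA2-/- HEs, 686 and 614 in WT HPCs and 381 and 552 in GATA2-/- HPCs. TLN1, the talin that binds beta-subunit tails, was at 82.3 and 72.4 TPM in hESCs, 228 to 291 in HEs and 313 to 427 in HPCs. The summed TPM of the 24 genes was 2015 to 2404 in HEs and 2258 to 2761 in HPCs. That of the 17 listed alpha genes was 645 to 743 in HEs and 133 to 228 in HPCs, and that of the 7 listed beta genes 554 to 738 and 172 to 233. The alpha and beta sums leave out ITGA2B and ITGB3. No gene of the lists of other basement membrane genes, integrin ligands and integrin activators changed between genotypes at either stage, and 6 of their tests had an unadjusted p under 0.05.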

How the data were processed

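Per the labels and the study's methods, RNA-Seq libraries were made with a TruSeq kit and sequenced single-end on a MiSeq, reads were trimmed with Trimmomatic and aligned with Bowtie to hg19, and the submitters' processing notes also name RSEM and the build mm10 with no role. The authors deposited one TPM value per Ensembl gene and library. TPM keeps no depth, so the precision rests on the 2 libraries per group. Library sums were 998299 to 999106 TPM. Groups were taken from the sample labels. Differences were computed on log2(TPM + 1), a pseudocount of 1, for genes that reached 1 TPM in 2 or more libraries, with limma 3.58.1 (trend, all 10 libraries in 1 fit, R 4.3.3) and Benjamini-Hochberg adjustment over the 21543 genes of each of 7 comparisons. 95% intervals come from the same fit. The scripts were tested on simulated data. The genes named were the members that passed the test or reached a group mean of 10 TPM, with the remaining members given by range. The members and all gene lists were chosen with earlier results of these data known. Gene positions and start sites came from GENCODE v44 lifted to GRCh37, and all 40 gene IDs matched. Alternatives were a pseudocount of 0.1, no filter, quantile normalization, no trend, rescaling without mitochondrial and hemoglobin genes, a replicate block, single comparisons, and each library left out.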

Additional observations from a re-analysis of the deposited data

How the results depend on the processing

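Counts below are of members past the limma threshold unless all genes are named. With the libraries left out in turn, the count ranged from 14 to 17 for HEs against hESCs, 11 to 13 for HPCs against hESCs, 8 to 14 for HPCs against HEs in WT and 8 to 10 in GATA2-/- cells, and was 0 throughout between genotypes. Where an arm kept 1 library, that library was assumed to vary like the other groups. An alternative added after seeing the data used the libraries of a comparison alone and the full set of genes. It gave 10 members for HPCs against hESCs, beside 4386 of all genes. For HPCs against HEs it gave 0 members and 0 of all genes in either genotype. With genes filtered anew 17, 12 and 11 members passed in the same comparisons, beside 5947, 1780 and 1979 of all genes tested. No member changed direction among its calls. The replicate numbers were not shown to pair samples, since the deviations of same-numbered libraries correlated by 0.12 across genotypes in HEs and 0.06 in HPCs. The replicate block gave 22, 19, 16 and 14 members for the 4 comparisons between stages, in the order above, and 0 between genotypes. Of all tested genes 6803, 6924, 2296 and 3002 then passed, beside 6462, 6586, 2134 and 2745 without a block. A block on the header tag, also added after seeing the data, gave 22, 20, 16 and 13, beside 6437, 6644, 2403 and 3100 of all tested genes. ITGAL passed upwards for HPCs against HEs in both genotypes under the replicate block (adjusted p = 0.0188 in WT and 0.0408 in GATA2-/- cells), and in WT cells also under the tag block (0.025) and without replicate 2 of the WT HPCs (0.0468). Rescaling without mitochondrial and hemoglobin genes moved the median of all genes for HPCs against HEs in GATA2-/- cells from 0.03 to 0.15, and the split of all calls from 1185 higher and 1560 lower to 1635 and 1340, while 0 members rose and 11 fell in both. With 2 libraries per group and unknown depth, small differences between genotypes could not be resolved, and neither could some larger ones. Between GATA2-/- and WT HPCs the log2 difference was 1.07 for COL4A1 (limma adjusted p = 0.281) and 1.12 for LAMA4 (limma adjusted p = 0.457). For ITGA3 it was 0.968, with a 95% interval of -0.408 to 2.345, so large differences are not excluded for every member.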
